A study of Sus scrofa with 16 samples.

Results

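Accessible chromatin regions of newborn pig spleen were classed by how many of 5 other newborn tissues also had a peak there. The assay was ATAC-seq, which reads where a transposase can reach the DNA of nuclei, and stretches with many such insertions are called as peaks. Each tissue was represented by 1 list of consensus peaks, merged from 2 replicate libraries. Every spleen peak on chromosomes 1 to 18 was compared with the lists of heart, kidney, lung, skeletal muscle and liver, and an overlap of 1 bp counted. This gave 81289 of the 84327 spleen peaks, out of 798988 peaks in all 8 lists of the series. Spleen peaks on X (1974), on Y (14) and on unplaced scaffolds (1050) were not classed.

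All groups were female domestic crossbred pigs without any treatment. Per the methods of the study they were full-sib Berkshire × Tibetan hybrids. The 6 newborn tissues were labelled as taken on the birth day (day 0), were described in the methods as coming from animals 1 day old, and came from the same 2 newborn animals. Liver lists of suckling pigs (day 28) and of adults (day 180), 2 pigs each, served as a further readout that the classes did not use. Nuclei were isolated from frozen whole tissue, so that fewer cells of a type and less open chromatin per cell cannot be told apart. Each list pools its 2 libraries and holds no read counts. No comparison between tissues therefore has a replicate error or a test here, and depth is unknown from the files. Intervals given as 95% are Wilson intervals and cover counting error only. A peak missing from a list was not called there, and its absence was not measured.

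The spleen is both a lymphoid organ and a filter of the blood. Its white pulp holds T and B lymphocytes, and its red pulp holds macrophages that take up aged red cells and recycle their iron. Around birth, spleen and liver of mammals can still form blood cells. Stromal cells that depend on homeobox factors such as TLX1 shape the organ. Promoters of genes that every cell uses tend to be open everywhere, whereas enhancers, which lie mostly in introns and between genes, are open in fewer cell types.

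Sequences of 6 spleen regions are printed here, since the results turn on their peaks. They were read from the reference assembly Sscrofa11.1, 5′ to 3′ on its forward strand, cover up to 161 bases round the peak summit, and were kept outside annotated exons. For TLX1, whose summit lies in an exon, the 161 bases before the transcription start site (TSS) are shown. Capitals mark matches, on either strand, to the consensus letters of blood or promoter factors: SPI1 (GAGGAAGT), TAL1 (CAGATG), KLF1 (CCNCACCC) and SP (GGGGCGGGG). The site of GATA factors, which act in red cells and other lineages (AGATAAG), a combined SPI1-IRF site (GGAANTGAA) and that of RUNX factors of blood cells (TGTGGTT) were searched too and had no match in these windows. Only these exact letters were searched. The SLC25A37 window holds AGATAA on each strand, which is the GATA letters without their last G. SPI1, SPI1-IRF and ETS (CCGGAAGT) letters share the core GGAA, so that their matches can overlap. Over all spleen peaks, windows of 161 bases held the SPI1 letters in 4.23% of cases, those of TAL1 in 13.7%, KLF1 in 10.2% and SP in 5.45%. A match describes letters only and is not a bound site.
The first 5 regions were in no other newborn list, namely the promoters of the T cell receptor chain CD3E, the stromal factor TLX1 and the mitochondrial iron importer SLC25A37, a site upstream of the phospholipase PLCG2, and an intron of DOCK10, a guanine nucleotide exchange factor of lymphocytes.
CD3E promoter, chr9:45619550-45619710: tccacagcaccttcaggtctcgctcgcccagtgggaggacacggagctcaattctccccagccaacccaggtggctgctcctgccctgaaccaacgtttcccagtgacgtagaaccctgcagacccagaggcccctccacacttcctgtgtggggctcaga
TLX1 promoter, chr14:112206803-112206963: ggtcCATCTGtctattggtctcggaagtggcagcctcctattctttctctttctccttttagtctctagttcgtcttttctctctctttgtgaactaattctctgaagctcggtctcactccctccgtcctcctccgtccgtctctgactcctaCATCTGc
SLC25A37 promoter, chr14:7663902-7664062: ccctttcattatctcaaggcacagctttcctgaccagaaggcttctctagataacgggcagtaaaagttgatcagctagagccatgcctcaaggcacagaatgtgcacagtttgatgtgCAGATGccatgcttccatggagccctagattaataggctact
PLCG2 upstream, chr6:6607459-6607619: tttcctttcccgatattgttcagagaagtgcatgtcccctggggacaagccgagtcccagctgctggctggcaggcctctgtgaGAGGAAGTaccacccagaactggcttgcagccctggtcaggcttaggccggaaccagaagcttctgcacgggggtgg
DOCK10 intron, chr15:126560294-126560454: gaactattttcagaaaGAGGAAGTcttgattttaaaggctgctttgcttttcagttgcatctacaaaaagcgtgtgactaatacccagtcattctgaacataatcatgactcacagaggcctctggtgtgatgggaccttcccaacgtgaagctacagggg
The last shows wider sharing: the promoter of RFX2, a factor of ciliary genes, was open in all 6 lists.
RFX2 promoter, chr2:72949699-72949858: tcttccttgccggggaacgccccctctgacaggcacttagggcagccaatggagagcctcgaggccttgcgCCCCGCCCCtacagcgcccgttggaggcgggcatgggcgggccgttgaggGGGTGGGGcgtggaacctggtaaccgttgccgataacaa
The window at RFX2 held 13 CpG dinucleotides and that at SLC25A37 held 1.

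The label of the tissue was checked against its markers. CD3E, a subunit of the T cell receptor complex, had a single spleen peak, at its promoter and in no other newborn list (chr9:45619269-45619894). Its strength, the −log10 p of the peak call, was 16.8 in replicate 1 and 39.4 in replicate 2, with an irreproducible discovery rate (IDR, low where replicates rank a peak alike) of 0.0170. TLX1, a homeobox factor needed for spleen formation, had a spleen-only promoter peak of 993 bp at chr14:112206420-112207412 with values of 56.7 and 76.9 and an IDR of 0.00372. Of the 6 spleen peaks nearest to TLX1, 2 were spleen-only and the other 4 were also in 3 or 4 other lists. SPI1 (PU.1), the master factor of myeloid cells, had a wide promoter peak at chr2:15227519-15229108 that was also in the lung and liver lists. Its replicates differed, at 40.03 and 5.38, with an IDR of 0.661. A pair of further peaks, 9133 and 10014 bp upstream of SPI1, was spleen-only, each with an IDR above 0.05. All 3 markers were thus open in the spleen libraries, and 2 of the 3 had a promoter peak in spleen alone. The study had itself named CD3E as open in spleen alone from these samples, so its peak is no independent check.

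The spleen-only class and the class of all lists were the largest of the 6. There were 19775 spleen-only peaks, or 24.3% of the list (95% interval 24.0 to 24.6), and 19961 peaks in all 6 lists, or 24.6%. Between these, 13481 peaks (16.6%) were in 1 other list, 10017 (12.3%) in 2, 8636 (10.6%) in 3 and 9419 (11.6%) in 4. Over the 18 chromosomes, the spleen-only share ran from 18.2% to 28.0%. This share depended on which peaks were admitted. It was 8.34% for the 20957 spleen peaks that met an IDR limit of 0.05, set against the full other lists, and 34.0% where all 6 lists were held to that limit.

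The classes differed in where they lay. Promoters, taken from 2.2 kb upstream to 500 bp downstream of a TSS of a protein-coding gene (PCG), held 4.56% of spleen-only peaks (95% interval 4.27 to 4.86). The share was 5.84%, 7.69%, 11.3% and 17.4% in peaks with 1, 2, 3 and 4 other lists, and 53.2% (52.5 to 53.9) in peaks of all 6 lists. Introns held 47.2% and intergenic DNA 41.5% of spleen-only peaks, against 17.8% and 22.2% of those in all 6 lists. Of the 15686 spleen promoter peaks, 901 were spleen-only and 10616 were in every list. Over the 18 chromosomes the promoter share ran from 1.86% to 8.84% in spleen-only peaks and from 45.8% to 58.1% in peaks of all lists. Under the alternative settings it ran from 2.65% to 9.65% and from 49.8% to 82.5%.

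Distance to the nearest PCG start followed the same order. The median was 31.2 kb for spleen-only peaks, then 28.1, 27.1, 22.8 and 18.4 kb for 1 to 4 other lists, and 0.799 kb for peaks in all lists. Spleen-only peaks lay more than 100 kb from any start in 22.4% of cases and within 1 kb in 3.44%, whereas 51.4% of the peaks in all lists lay within 1 kb. Outside promoters the medians were closer, at 34.2 kb for spleen-only and 22.3 kb for shared-by-all peaks. Spleen-only promoter peaks were also placed differently within the promoter. Their summits had a median distance of 655 bp from the TSS and 29.0% were within 250 bp, against 70.0 bp and 77.8% for promoter peaks in all lists.

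**Figure D1:**
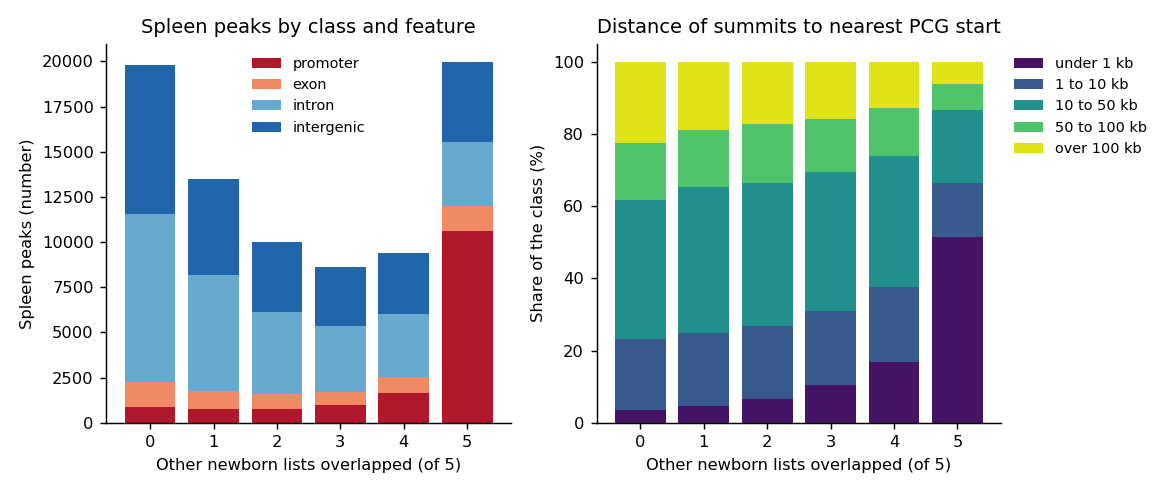
Left, number of spleen peaks on chromosomes 1 to 18 by the number of other newborn lists overlapped, with bar segments for the genomic feature. Right, share of each class (in %) by distance of the peak summit to the nearest start of a protein-coding gene. The promoter segment is 901 peaks in the spleen-only class and 10616 in the class of all 6 lists, where 51.4% of summits lie within 1 kb of a start.

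Further features changed step by step with sharing. Median peak width went from 321 bp in spleen-only peaks to 887 bp in peaks of all lists, and median GC content within 150 bp of the summit from 46.5% to 63.1%. The median number of CpG dinucleotides per window was 4 for spleen-only peaks and 20 for peaks in all lists. Outside promoters, GC content was 46.5% and 57.1%. Repeats, as soft-masked bases of the assembly, made up a mean of 21.0% of a spleen-only window and 8.88% of a window shared by all.

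Spleen-only peaks were also the weakest calls of the spleen list, which bears on all their counts. The median of the smaller replicate −log10 p was 5.92 in spleen-only peaks and 19.9 in peaks of all lists. The IDR limit of 0.05 was met by 8.83% of spleen-only peaks, 16.3% of those with 1 other list and 55.2% of those in all lists. Ranked by the smaller value, the weakest 20323 spleen peaks were spleen-only in 35.6% of cases and the strongest 20322 in 7.48%. Replicate 2 had the larger value in 78.5% of spleen-only peaks and in 79.7% of all spleen peaks. The study lists fewer informative reads for replicate 2 of spleen than for replicate 1. How far strength accounts for the classes was not tested.

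Liver was the tissue with which spleen shared most peaks. The liver list overlapped 60.8% of spleen peaks, kidney 56.4%, lung 47.5%, heart 44.9% and muscle 32.6%. Of the 13481 spleen peaks with a single partner, liver was that partner in 6598 (48.9%, 95% interval 48.1 to 49.8), kidney in 3610 (26.8%), lung in 1568 (11.6%), heart in 1061 (7.87%) and muscle in 644 (4.78%). Where 4 lists were overlapped, the absent one was muscle in 6486 of 9419 peaks (68.9%). List length moved with these shares, from 54830 muscle to 128184 kidney and 115504 liver peaks. With the 54830 strongest peaks of each list, liver was the single partner in 31.1%, lung in 21.7%, kidney in 19.2%, heart in 16.3% and muscle in 11.7%. Where every list was held to the IDR limit, which left 22203 liver and 43382 kidney peaks, kidney came first at 64.7% and liver was at 12.7%. The order of the partners therefore depended on which calls were admitted.

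The liver lists of older pigs gave a readout outside the class rule. Of the spleen-only peaks, 16.2% overlapped the day 28 list, 9.84% the day 180 list and 20.9% at least 1 of them (95% interval 20.4 to 21.5). The share in a later liver list was 51.8%, 70.3%, 80.8% and 91.7% with 1 to 4 other newborn lists and 98.8% with all 5. Peaks whose single partner was newborn liver were in the day 28 list in 68.9%, in the day 180 list in 50.1% and in neither in 23.7% of cases. For single partners kidney, lung, heart and muscle, 71.2%, 68.6%, 73.5% and 78.7% were in neither. For the other newborn tissues, the share of their own tissue-only peaks in a later liver list was 9.08% in muscle, 9.84% in heart, 10.9% in lung and 16.2% in kidney. With an IDR limit in all 6 newborn lists the spleen-only value was 64.9%, and at equal list lengths 38.4%. In both settings the newborn liver list was shortened while the later liver lists were kept whole. Spleen peaks at weaker newborn liver calls then counted as spleen-only and could still overlap a later list, so these values cannot be set against the 20.9%.

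**Figure D2:**
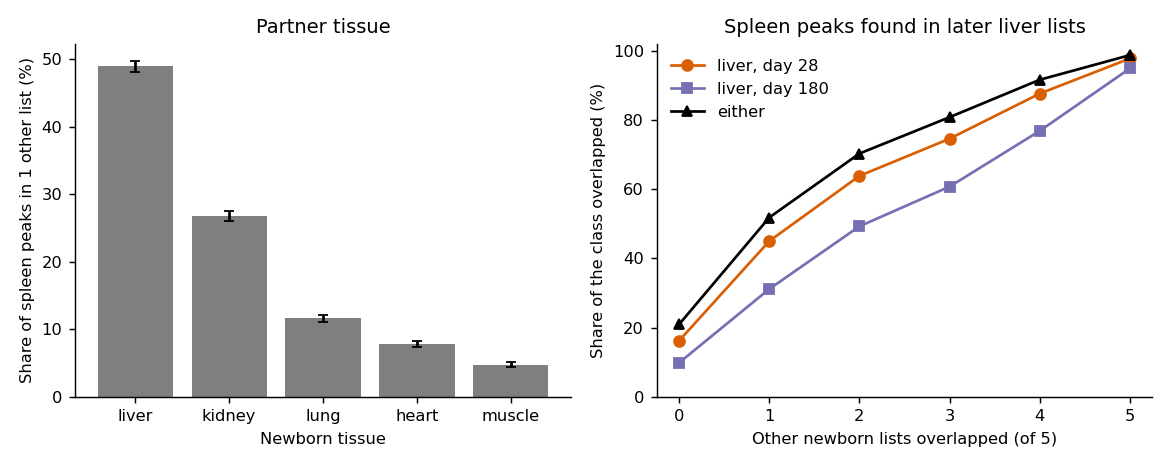
Left, share (in %) of the 13481 spleen peaks with 1 other list, by the newborn tissue of that list, with Wilson 95% intervals as error bars. Right, share (in %) of each spleen class that overlapped the liver lists of day 28, day 180 or either, from 20.9% for spleen-only peaks to 98.8% for peaks in all 6 newborn lists.

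Of the 18725 PCGs on these chromosomes, 13023 (69.5%) had a spleen promoter peak and 828 (4.42%) a spleen-only promoter peak. For 164 PCGs (0.876%), spleen was the only newborn list with any promoter peak. A promoter peak in all lists was found at 10852 PCGs (58.0%), and 385 (2.06%) had one shared with liver alone. The 28 gene lists used here name cell types and pathways, and are described by counts beside these shares, without a test. Of 287 matched genes in the 16 blood and immune lists, 64 (22.3%, 95% interval 17.9 to 27.5) had a spleen-only promoter peak. Of 96 genes in 7 lists of other tissues, 4 did (4.17%). The lists also differed in spleen promoter peaks of any class, found at 250 (87.1%) of the blood and immune genes and 29 (30.2%) of the other tissue genes. How far this accounts for the spleen-only shares was not tested. Limited to peaks within the IDR limit, the counts were 14 of 287 and 1 of 96, beside 98 PCGs in all (0.523%). A spleen-only peak with its nearest start at the gene and within 100 kb was found for 7057 PCGs (37.7%), for 211 (73.5%) of the blood and immune genes and for 30 (31.2%) of the other tissue genes. The median number of such peaks was 2 per blood and immune gene and 0 per PCG.

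Among the cell type lists, T cell genes had a spleen-only promoter peak in the largest share of members. Of 21 genes that mark T cells, 14 had one, among them the receptor chains CD3E, CD3D, CD3G and CD247, the coreceptors CD8A and CD8B, the costimulators CD28 and ICOS, the surface proteins CD2, CD5 and CD6, the kinase LCK and the signalling protein THEMIS. For 8 of them spleen was the only newborn list with a promoter peak. In the lists of heart, lung, muscle and liver none of the 21 genes had a promoter peak of that tissue alone, and in kidney 3 did. The CD247 peak had values of 13.9 and 29.3 in the 2 replicates and that of CD2 13.8 and 38.1, and both had an IDR under 0.05. Replicate 2 was the higher library at both promoters. CD3D and CD3G lie head to head and shared 1 peak, so that the 14 genes had 13 peaks. A promoter peak shared with newborn liver alone was found at 5 of the 21 genes, namely CD5 and LCK, which are also among the 14, CD4, the adaptor LAT (12.8 and 41.6) and the cytokine receptor IL7R (13.2 and 28.2). TCF7 and GATA3, factors of T cell development, had a promoter peak in all 6 lists.

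B cell genes followed, with a spleen-only promoter peak at 10 of 20. The coactivator POU2AF1 had values of 15.7 and 38.4 and an IDR of 0.0200, and was the only one of the 10 within the IDR limit of 0.05. CD79A, a chain of the B cell receptor, had 14.6 and 13.9, and MS4A1 (CD20) 8.91 and 24.1, with IDRs of 0.295 and 0.107. At POU2AF1, MS4A1 and the factor SPIB no other newborn list had a promoter peak. PAX5 and EBF1, which set B cell identity, each had a promoter peak in all lists, and PAX5 had a spleen-only one besides. Genes of natural killer and cytotoxic cells gave lower counts. A spleen-only promoter peak was found at 1 of 16, the receptor NCR1 (6.97 and 7.20, IDR 0.661), and 4 had one shared with liver alone.

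Myeloid genes were mostly shared. Of 20 genes, 5 had a spleen-only promoter peak, and at none of them was spleen the only list with a promoter peak. ITGAM (CD11b) had values of 18.97 and 16.3, AIF1 8.31 and 23.9, and LYN 7.59 and 6.98. Their IDRs were 0.263, 0.151 and 0.661. The promoter peak of CSF1R, the receptor of the main macrophage growth factor, was shared with newborn liver alone (13.2 and 26.4). The complement gene C1QA had a promoter peak shared with kidney and liver (48.4 and 65.5). Of 15 genes of iron recycling in the red pulp, 2 had a spleen-only promoter peak. They were SPIC, the factor of red pulp macrophages (5.13 and 43.9, IDR 0.468), and the adhesion molecule VCAM1 (11.8 and 26.2, IDR 0.0398). At 11 of the 15, including the iron exporter SLC40A1, a promoter peak was in all 6 lists, beside 58.0% of all PCGs.

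Among the list genes, the strongest spleen-only promoter peaks were at red cell genes, apart from that of TLX1. Of 20 erythroid genes, 9 had one and 6 had one shared with newborn liver alone. SLC25A37, which brings iron into mitochondria for heme, had the strongest of all PCGs (chr14:7663767-7664280), with values of 77.4 and 131, an IDR of 0.00219 and a summit 1020 bp upstream of the start. FECH, which inserts iron into heme, had 38.7 and 136 at a summit 1797 bp upstream. The erythroid factor KLF1 had 28.0 and 78.4 at a summit 43 bp upstream. All 3 were below an IDR of 0.01 and all 3 were higher in replicate 2. For 2 of the 20 erythroid genes spleen was the only newborn list with a promoter peak, and 6 had a promoter peak in all 6 lists. Shared with liver alone were the promoters of the red cell anion exchanger SLC4A1 (91.7 and 118), the factor NFE2 (58.7 and 96.3 at the stronger of 2 peaks), the alpha globin chaperone AHSP (22.1 and 83.2) and the beta globin gene HBB (65.9 and 132). TAL1, a factor of blood progenitors and red cells, had a promoter peak shared with lung alone (38.4 and 84.9), a pattern found at 115 PCGs (0.614%). It also had a weaker spleen-only peak (9.98 and 30.3).

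T cell and red cell promoters had different overlaps with the later liver lists. Of the 13 spleen-only promoter peaks of T cell genes, 12 overlapped a later liver list (92.3%, 95% interval 66.7 to 98.6), 11 at day 28 and 8 at day 180. The 13 spleen-only promoter peaks at 9 erythroid genes overlapped neither later list (0 of 13, which by the same interval allows up to 22.8%). Within the IDR limit, the peaks of all 4 T cell genes (CD3E, CD247 and CD2 among them) were in a later list and those of the 4 erythroid genes (SLC25A37, FECH and KLF1 among them) were in none. Over all 901 spleen-only promoter peaks the share was 27.5%, and in B cell genes 3 of 15 peaks did. Of all 407 promoter peaks shared with newborn liver alone, 295 were in the day 28 list and 239 in the day 180 list. The 5 at T cell genes were in the day 28 list in 5 and in the day 180 list in 4 cases, the 7 at erythroid genes in 1 and 0. HBB, which was not in the erythroid list, was in the day 28 list and not in that of day 180. Neighbouring peaks of a gene are not independent, and day and animals change together between the liver lists.

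**Figure D3:**
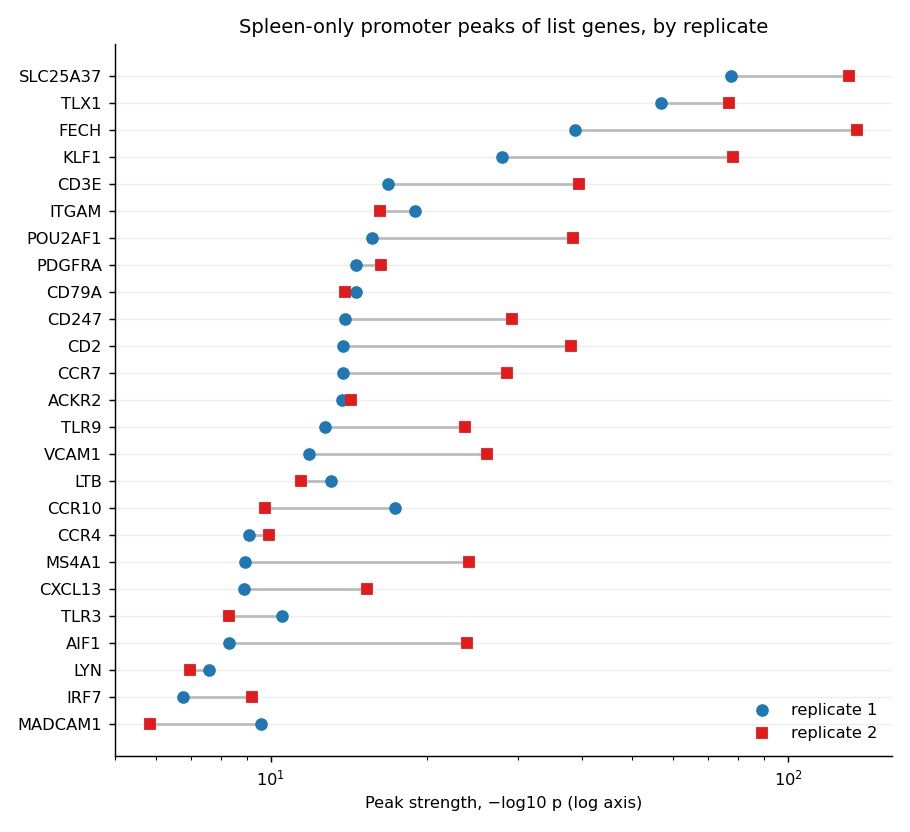
Strength (−log10 p, log axis) in replicate 1 (circles) and replicate 2 (squares) of the spleen-only promoter peaks of 25 named list genes, in order of the smaller value. Replicate 2 is higher at 18 of the 25, and SLC25A37, TLX1, FECH and KLF1 lead.

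Stromal, vessel and lymphoid architecture genes gave smaller counts. Of 14 genes of spleen stroma and patterning, TLX1 and the growth factor receptor PDGFRA (14.6 and 16.3, IDR 0.170) had a spleen-only promoter peak. A promoter peak in all lists was found at 8 of the 14, beside 58.0% of all PCGs. The promoter of NKX2-3, a homeobox factor of spleen and gut vessels, was open in kidney and liver too (135 and 110). NKX2-5, known for the heart and for the spleen anlage, had its promoter peak shared with heart alone (42.9 and 73.0). Of 19 genes of lymphoid tissue organisation, 4 had a spleen-only promoter peak: the cytokine LTB (13.1 and 11.4), the B cell attractant CXCL13 (8.86 and 15.3), VCAM1, and the homing receptor ligand MADCAM1 (9.57 and 5.84). The IDRs of LTB, CXCL13 and MADCAM1 were 0.363, 0.117 and 0.661. In 15 endothelial genes there were 2, MADCAM1 and the receptor TEK (4.10 and 11.96, IDR 0.661). Outside promoters, a strong spleen-only peak lay 17503 bp from a start of CLEC14A, a vessel surface protein (45.7 and 163).

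Signalling and receptor lists varied. Over all PCGs, 4.42% had a spleen-only promoter peak and 2.06% one shared with liver alone. Of 29 T cell receptor signalling genes, 10 had a spleen-only promoter peak, and 10 had one shared with liver alone. All 9 spleen-only promoter peaks of this list, which shares members with the T cell list, overlapped a later liver list. The counts were 5 of 24 for B cell receptor signalling, 5 of 20 for chemokine receptors and 3 of 29 for interleukin and cytokine receptors. They were 3 of 22 for Toll-like receptor signalling, 3 of 20 for antigen presentation, 2 of 24 for the JAK-STAT and interferon response and 3 of 18 for phagocyte oxidase and Fc receptors. CCR7, which guides T cells into the white pulp, had 13.8 and 28.6 (IDR 0.0275), and no other newborn list had a promoter peak there. The cytokine receptor IL4R had 14.2 and 19.1 (IDR 0.0759), and TLR9, the sensor of unmethylated DNA, 12.7 and 23.7 (IDR 0.0380). Blood stem and progenitor genes had 1 of 16, LMO2 (6.29 and 52.8, IDR 0.447). Megakaryocyte genes had 2 of 15, P2RY12 (16.03 and 42.3, IDR 0.0195) and GP9 (5.78 and 26.9, IDR 0.427). All 4 genes that the study itself had pointed to in spleen, among them CD3E, VCAM1 and ADA, had a spleen-only promoter peak, which is no independent evidence since they were chosen on these samples.

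Lists for the other tissues were counted by the same measure. No gene of the hepatocyte, skeletal muscle fibre or lung epithelium lists (15 genes each) had a spleen-only promoter peak. The cardiomyocyte list had 1 of 14 (HAND2, 7.78 and 3.45), the kidney list 1 of 14 (SLC12A3, 5.48 and 3.11) and the mesothelium and adipocyte list 1 of 9 (LRRN4, 4.22 and 5.77), each with an IDR of 0.661. The pancreas, which lies beside the spleen, had 1 of 14: CPB1, a pancreatic carboxypeptidase, at 21.8 and 34.2 with an IDR of 0.0145. RBPJL, a factor of pancreatic acinar cells, had a spleen-only peak 15369 bp from its start (21.1 and 42.6). PNLIP, CPA1, CTRC, PTF1A, PDX1 and INS had no spleen promoter peak, and 3 of the 14 genes had one of any class. Of 31 proteasome genes, used by all cells, none had a spleen-only promoter peak and 29 had one in all 6 lists.

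**Figure D4:**
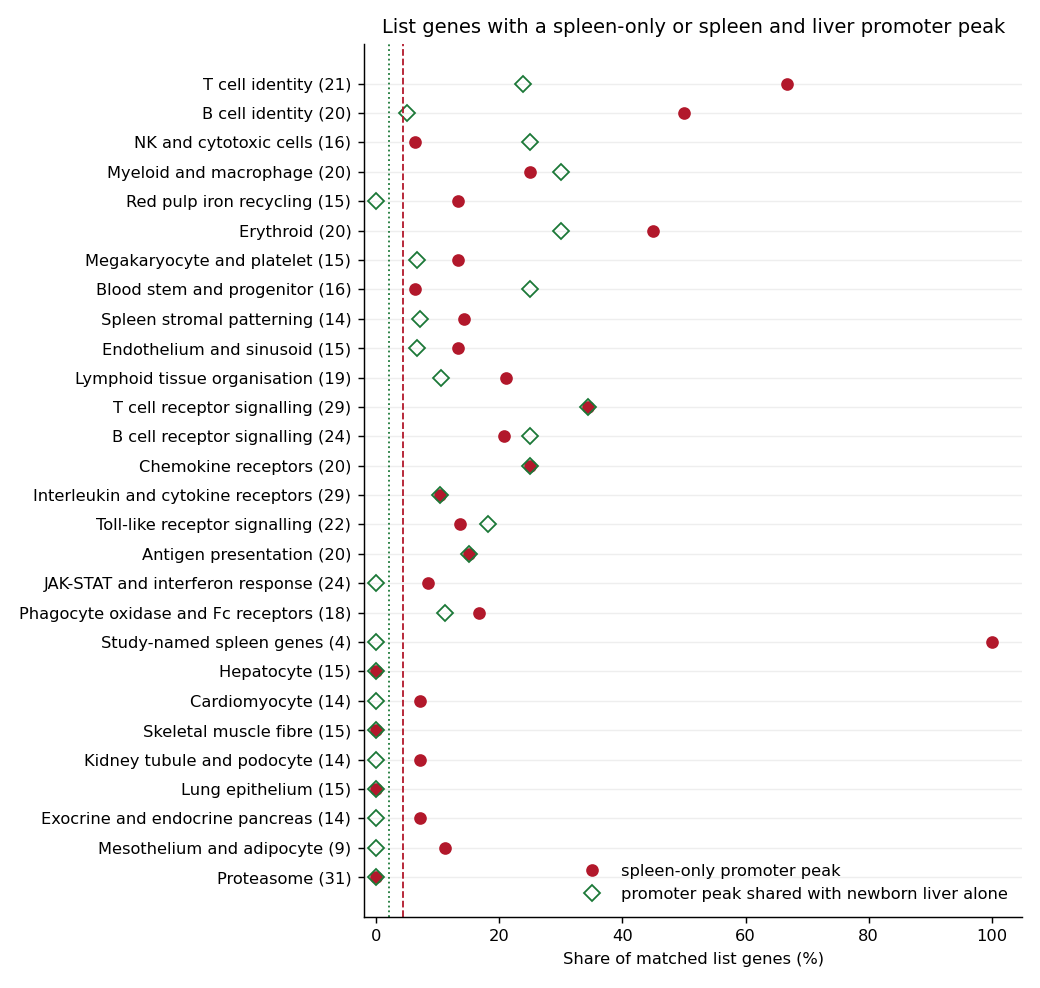
Share (in %) of the matched genes of each list (number in brackets) with a spleen-only promoter peak (filled circles) or with a promoter peak shared with newborn liver alone (open diamonds). Dashed and dotted lines mark the shares over all PCGs, 4.42% and 2.06%, and T cell identity (14 of 21) and B cell identity (10 of 20) stand at the right of the cell type lists.

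Peaks near the list genes, promoters included, gave a different order of the lists. Of the 68795 spleen peaks within 100 kb of a PCG start, 22.3% were spleen-only. Around T cell genes it was 63 of 150 peaks (42.0%, 95% interval 34.4 to 50.0), around red pulp iron genes 53 of 124 (42.7%), and around the blood and immune genes together 31.3% (29.4 to 33.3). Around B cell and erythroid genes it was 29.7% and 30.6%. Lists of other tissues reached like shares, with 19 of 42 peaks around mesothelium and adipocyte genes (45.2%, 31.2 to 60.1), 12 of 29 around kidney genes (41.4%, 25.5 to 59.3) and 27.8% over all other tissue genes (22.5 to 33.7), whose interval overlaps that of the blood and immune genes. Around endothelial genes it was 17.6% and around proteasome genes 19.5%. Peaks shared with liver alone made up 8.30% of all these peaks, 20.2% of those around erythroid genes and 4.84% of those around red pulp iron genes. Peaks in all 6 lists made up 27.2% overall and 5.33% around T cell genes.

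The strongest spleen-only promoter peaks, whatever the gene, came after SLC25A37 and TLX1 at the claudin CLDN15 (47.9 and 132), the radial spoke gene RSPH9 (44.8 and 188), the Rap1 regulator SIPA1 (40.4 and 175), FECH, SNCG (38.7 and 127), SLC25A38 (36.1 and 150), UBE2F (35.7 and 99.5) and ARG1 (35.1 and 82.5). None of these 10 peaks was in a later liver list. Summits lay 1962 bp upstream of the start at CLDN15, 1797 bp at FECH, 1658 bp at SIPA1 and 1199 bp at UBE2F. At TLX1, SLC25A38 and ARG1 they lay 95, 64 and 45 bp from the start. SLC25A38 carries glycine into mitochondria for heme synthesis. ARG1, arginase 1, breaks down arginine. The SNCG peak was nearer to a start of MMRN2, an endothelial matrix gene.

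Outside promoters the strongest spleen-only peaks lay 30055 bp from a start of SDC1 (83.3 and 174), a proteoglycan of plasma cells and epithelia, and 36714 bp from FAM46C (69.8 and 188). They were followed by peaks 66010 bp from CELF4 (68.3 and 77.8), 254077 bp from TBC1D5 (63.6 and 63.9) and 109824 bp from TPGS2 (60.9 and 69.8). The nearest start need not belong to the gene such a site acts on. Most spleen-only peaks per gene were found at INPP4B, a phosphoinositide phosphatase, with 20 of its 29 spleen peaks, ARHGAP24 (19 of 41), the lymphocyte factor FOXP1 (18 of 46), PDE4D (18 of 55) and PREP (18 of 31). ELMO1 (16 of 36), RASGEF1B (16 of 45), the T cell kinase FYN (15 of 34), CHODL (14 of 23) and DOCK10 (14 of 29) completed the 10. At each gene 1 to 3 of the spleen-only peaks met the IDR limit of 0.05. At DOCK10 the strongest, whose sequence is shown above, had 18.8 and 36.7 and was in both later liver lists.

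Promoters of the middle classes named further blood genes. In 1 other list, always liver, the strongest were REEP1 (93.4 and 119), SLC4A1 and HBB. In 2 lists they were NKX2-3, the red cell membrane gene EPB42 with heart and liver (95.4 and 208), and C1QA. In 3 lists they included the proton pump subunit ATP4B (83.3 and 195) and STXBP2, a gene of cytotoxic granule release (73.5 and 113). In 4 lists they were CCRL2, a chemoattractant-binding receptor (93.6 and 184), BAIAP2 (91.7 and 240) and APBB1IP, an integrin activator of leukocytes (90.6 and 116). Liver was a partner of each of these peaks. In all 6 lists the strongest were ASB7 (427 and 410), RFX2 (400 and 446) and KAT6B (452 and 388).

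Consensus letters round the summits differed by class. Outside promoters, windows of 150 bp on each side of the summit held the SPI1 letters in 7.18% of 18874 spleen-only peaks (95% interval 6.82 to 7.56), 6.38% of all such spleen peaks and 3.58% (3.23 to 3.98) of 9345 peaks in all lists. The share with 1 other list was 7.82%, and 9.82% where that list was liver. Flanks 2 kb away held them in 1.62% and the letters in reversed order in 1.79% of spleen-only windows. Tissue-only peaks of the 5 other tissues held the SPI1 letters in 1.33% of muscle to 2.36% of lung windows. On 18 of the 18 chromosomes the share was above that of peaks in all lists. The PLCG2 and DOCK10 sequences above are examples.

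For the other factors of blood cells named here the shares in the flanks were higher than for SPI1. RUNX letters were in 10.3% of spleen-only windows outside promoters, 8.25% of all and 4.90% of those in every list, with 6.72% in the flanks. SPI1-IRF letters were in 5.27%, 4.27% and 2.09%, with 2.996% in the flanks. NFKB letters (GGGANTTCC) were in 4.87%, 3.36% and 2.14%, but the flanks of spleen-only peaks held them in 4.42%. GATA letters, the site of erythroid and other GATA factors, were in 4.98% of spleen-only windows, 4.88% of all and 2.63% of those in every list. The flanks of spleen-only peaks held the GATA letters in 3.92%. GATA letters were more frequent in peaks shared with liver alone (7.95%) or heart alone (8.51%), and in heart-only peaks (9.43%). TAL1 letters were in 27.6% of spleen-only windows and in 22.5% of their flanks. Tissue-only peaks of other tissues held the TAL1 letters in 21.7% of lung to 29.4% of muscle windows. KLF1, EBF1 and TCF3 letters ran the other way outside promoters. From spleen-only peaks to peaks in every list, KLF1 letters went from 14.4% to 18.7%. EBF1 letters (CCCNNGGGA) went from 5.45% to 9.98%, and TCF3 letters (CAGGTG) from 15.96% to 20.8%. A fall was also not confined to the letters above. HNF1 letters (GTTAATNAT) went from 0.848% to 0.332%, and NKX letters (TTAAGTG) from 5.002% to 2.47%. GC content moved with the classes, and its part in these shares was not tested.

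Letters of general factors were also more frequent in peaks of all lists. Outside promoters, CTCF letters (CNAGGGGGC) were in 1.298%, 2.13%, 2.92%, 4.44%, 5.68% and 7.03% of windows with 0 to 5 other lists, and in 3.39% of all. SP letters went from 2.10% in spleen-only windows to 9.42%. In promoters, SP letters were in 4.66% of spleen-only and 32.2% of shared-by-all windows, ETS letters in 0.777% and 8.71%, NRF1 letters (GCGCATGCG) in 0.111% and 3.46%, and YY1 letters (AAGATGGCG) in 0.111% and 3.78%. Over all spleen promoter peaks the shares were 26.5%, 6.29%, 2.48% and 2.69%. SPI1 letters ran the other way in promoters, at 9.32% of 901 spleen-only windows and 2.35% of 10616 windows in all lists. RUNX letters were at 11.2% and 2.21%. The SP letters read the same reversed and backwards, so the reversed control is void for them.

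**Figure D5:**
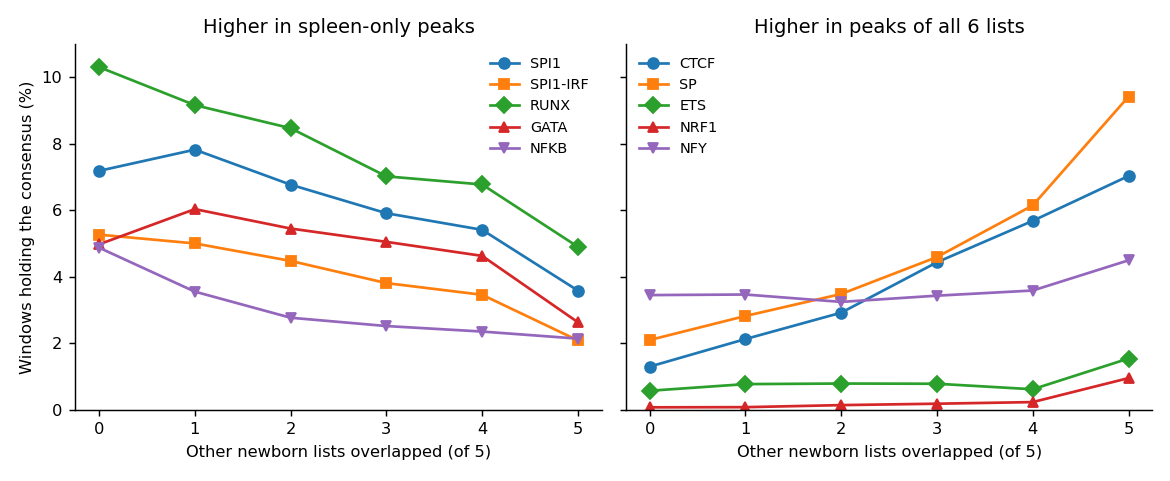
Share (in %) of windows round the summit, outside promoters, that held each consensus, by number of other newborn lists overlapped, for letters with a larger share in spleen-only peaks (left) or in peaks of all lists (right). SPI1 letters go from 7.18% in spleen-only peaks to 3.58% in peaks of all lists, and CTCF letters from 1.298% to 7.03%.

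Set beside the tissue-only peaks of the other newborn lists, those of spleen were not extreme in number. They made up 24.3% of their list, against 17.5% in heart, 21.8% in lung, 22.1% in muscle, 28.0% in liver and 34.6% in kidney. Their promoter share of 4.56% lay above the 2.80% to 4.16% of the others. Their median distance to a start, 31.2 kb, was near that of liver-only peaks (29.9 kb), whereas lung, muscle, heart and kidney had 39.4, 39.4, 47.8 and 48.1 kb. Mean repeat content was 21.0% in spleen-only and 19.5% in liver-only windows, and 13.1% to 17.2% in the others. These values describe 1 pooled list per tissue.

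The classes depended in part on the edge of the overlap rule. Of the 19775 spleen-only peaks, 3453 (17.5%) had a peak of another list within 500 bp. Of the 13481 peaks in 1 other list, 185 (1.37%) were overlapped over less than 10% of their width, and 10454 (77.5%) over at least 50%.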

How the data were processed

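The series held 16 ATAC-seq libraries in 8 groups of 2, as 8 merged lists of peaks with positions in Sscrofa11.1. Per the study's methods and the submitters' processing notes, the authors used Bowtie2 for alignment and SAMtools 1.3.1 to drop duplicates, poor alignments and those to the mitochondrial genome, called peaks per library with MACS2 at a q-value of 0.05 and matched replicates with IDR at default settings. The deposited −log10 p columns hold the peak caller's value of each replicate and, in the pooled column, the smaller of them. The deposited score columns hold the IDR, scaled up to 1000 or as its negative logarithm, and the lists were not filtered on it. The pooled signal and q-value columns held a constant and were not used. The values are no counts, so depth is unknown from the files, and −log10 p moves with depth, so that it was compared only within the spleen list.

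Classes were made from interval overlap of at least 1 bp. Distances ran from the spleen summit to 45651 RefSeq transcript starts of 18725 PCGs on chromosomes 1 to 18, and promoters used the study's window on that annotation, from 2.2 kb upstream to 500 bp downstream. The 28 gene lists held 486 symbols, of which 461 matched, and 30 consensus sequences were searched. The members and lists were chosen with earlier results of these data known. Named genes were the 3 markers, per list the 4 members with the strongest spleen-only promoter peak (or, in shorter lists, members with the strongest nearest spleen-only peak), the 10 PCGs with the strongest spleen-only promoter peak, the 10 with most spleen-only peaks within 100 kb, the 5 strongest spleen-only peaks outside promoters and the 3 strongest promoter peaks of each shared class, by the smaller replicate value. Other genes, among them NKX2-5 and those shared with liver or lung alone, were named after their values were seen. Interval overlap, distances and letter searches were tested on simulated data. Python 3.11.15, NumPy 2.4.6, pandas 2.3.3, SciPy 1.17.1 and Matplotlib 3.10.9 were used. With 1 pooled list a group no test was made. Alternatives were the overlap rule, IDR limits, equal list lengths, either replicate's own intervals, chromosome X, all annotated genes, a narrower promoter and a shorter window. Some genes and sequences that this rule selects are not reported here.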

Additional observations from a re-analysis of the deposited data

How the results depend on the processing

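Of 80 values under the alternatives, 29 moved by less than their counting interval (counts of genes, by less than 1.5 times) and 51 moved further. Reversals of an order were not counted, and orders could change. With the IDR limit in all 6 lists, kidney was the most frequent single partner (64.7%), ahead of liver (12.7%). The spleen-only share (24.3% as reported) was 29.4% where 50% of a peak had to be covered, 20.1% where peaks within 500 bp counted, 8.34% with the IDR limit of 0.05 in spleen, 34.0% with it in all 6 lists and 31.6% with lists of equal length. In the same order, the share in all 6 lists (24.6%) was 20.6%, 27.2%, 52.6%, 14.3% and 18.4%. The promoter share of spleen-only peaks (4.56%) was 4.89%, 3.65%, 5.44%, 9.65% and 5.58%, and that of peaks in all 6 lists (53.2%) 57.2%, 51.7%, 61.7%, 82.5% and 58.2%. With all annotated genes these were 5.76% and 55.8%, and with a promoter from 1 kb upstream to 100 bp downstream 2.65% and 49.8%. The median distance of spleen-only peaks (31.2 kb) was 30.4, 33.7, 35.6, 24.2 and 30.3 kb, and 23.5 kb with all annotated genes. The share of spleen-only peaks in a later liver list (20.9%) was 18.3%, 23.4%, 29.1%, 64.9% and 38.4%, with the later liver lists kept whole throughout. The share of liver as the single partner (48.9%) was 49.8% where 50% had to be covered, 66.9% with the IDR limit in spleen, 12.7% with it in all lists and 31.1% at equal length. Genes with a spleen-only promoter peak (828) were 98 with the IDR limit in spleen and 492 with the narrower promoter, and those of the blood and immune lists (64) were 14 with the IDR limit in spleen. SPI1 letters in spleen-only peaks (7.18%) were in 6.60% with the IDR limit in spleen, 9.50% with it in all lists, 7.90% at equal length and 3.85% of the shorter windows of 50 bp each side.

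With the intervals of replicate 1 or replicate 2 alone, the spleen-only share ran from 25.1% to 25.7%, the share in all lists from 24.0% to 24.3%, the liver share from 48.2% to 50.0% and the later liver share from 20.1% to 20.8%. These intervals come from peaks already matched between replicates, so they are no independent check of a library. No paired analysis was possible because each list pools its 2 replicates and no test was made. Adding chromosome X, run for the spleen-only share and the share in all lists, moved neither beyond its interval. The cause of these changes was not tested. Depth could not be read from the files. The read numbers that the study lists per library were used only to set the 2 spleen replicates side by side. A peak called in spleen alone may lie under the calling limit elsewhere, and gene lists of 4 to 31 members allow wide intervals.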
